A study of Mus musculus with 10 samples.

Results

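Cells take up and release glucose, lactate, pyruvate and other small carbon compounds through membrane carriers of the solute carrier families Slc2a, Slc5a and Slc16a. The expression of these carriers was examined in mouse oviducts that lacked the progesterone receptor and in heterozygous oviducts. The members were all genes whose symbol in the platform's annotation begins with Slc2a, Slc5a or Slc16a followed by a number, and there were 39 of them among 19938 genes tested. Of these, 12 were Slc2a genes, 13 were Slc5a genes and 13 were Slc16a genes. The remaining member, Slc2a4rg-ps, is a transcribed pseudogene that only shares the start of its symbol, encodes no carrier, and is left out of the counts below, which cover 38 carriers. Its log2 difference was 0.14 with a limma adjusted p of 0.370.

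The mutant animals, PRKO, were homozygous for a lacZ insertion that disrupts both isoforms of the progesterone receptor. The controls, PR+/-, were heterozygous for the same insertion, so they too carried 1 disrupted allele. All animals were 21 to 23 days old at the first injection and received 5 IU of equine chorionic gonadotropin (eCG), which drives follicle growth, and 44 to 47 h later human chorionic gonadotropin (hCG, 5 IU), the signal for ovulation. Whole oviducts were taken 8 h after hCG from 15 animals of each genotype, and each of the 5 arrays per genotype holds a pool of 3 animals. The pools hold different animals, so errors below describe the spread between pools. Wild-type animals, animals without hormone and other times after hCG were not analysed here. The disruption is not restricted to a cell type, and the animals were prepubertal and stimulated.

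Slc2a genes encode the GLUT proteins, which let sugars pass down their concentration gradient. Slc5a genes encode sodium-coupled carriers that move glucose, myo-inositol, vitamins, choline, iodide or short monocarboxylates into cells against a gradient. Slc16a genes encode the monocarboxylate transporter (MCT) family, some of whose members move lactate and pyruvate together with a proton while others carry amino acids, thyroid hormone, carnitine or creatine. The oviduct secretes pyruvate, lactate and glucose into its fluid, and the cleaving embryo uses pyruvate and lactate before it turns to glucose.

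Pgr, which encodes the progesterone receptor, was read first because it tests the genotype labels. Its log2 signals were 6.39, 6.32, 6.31, 6.39 and 6.37 in PRKO replicates 1 to 5, against 7.55, 7.48, 7.43, 7.27 and 7.35 in PR+/- replicates 1 to 5. The genotypes did not overlap, and the log2 difference was -1.06 ± 0.072 (SE, n = 5 arrays each; limma adjusted p = 1.00e-06; two-sided exact permutation p = 0.00794 over 252 arrangements, the smallest this design allows). Every array therefore carried the Pgr signal of its labelled genotype. The signal unit throughout is the log2 value of a probe set, a difference is the PRKO mean minus the PR+/- mean, and a gene was called at a limma adjusted p under 0.05 over all genes.

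Across the array, 4.96% of the genes were called, with 1.09% of all genes higher and 3.87% lower in PRKO, and the median log2 difference of all genes was 0.03. These 988 calls (217 higher, 771 lower) came to 581 (84 higher, 497 lower) without PR+/- replicate 1, to 598 without PR+/- replicate 2, and to 322 with the interquartile range of each array as a covariate. PRKO arrays varied more. The interquartile range of signal was 3.13 to 3.42 on PRKO arrays and 3.37 to 3.48 on PR+/- arrays. This range differed with genotype, so a fit with it as a covariate cannot fully separate it from genotype. Correlations between arrays of 1 genotype were 0.988 to 0.992 among PRKO and 0.994 to 0.996 among PR+/-. PRKO replicate 3 and PR+/- replicate 4 stood apart in the summed linear signal of 8 ovarian steroidogenic and granulosa cell markers, which was 502 and 468 on these arrays, 163 to 198 on the other PRKO arrays and 167 to 179 on the other PR+/- arrays. Calls lost without these 2 arrays are named beside the result.

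Of the 38 carriers, 5 were called, 2 of them higher and 3 lower in PRKO oviducts, beside 4.96% of all genes in either direction. The 3 that fell were Slc2a1, Slc2a3 and Slc2a4, which encode the facilitative glucose carriers GLUT1, GLUT3 and GLUT4. The 2 that rose were Slc16a14 and Slc16a9 of the monocarboxylate transporter family. In pooled whole oviducts fewer cells of a type and less RNA per cell cannot be told apart. The other 33 carriers had log2 differences between -0.27 and 0.39 and adjusted p-values from 0.0662 to 0.972. The median log2 difference of the 38 carriers was 0.02. The PRKO mean was the higher in 23 of them, beside 11195 of all 19938 genes. Without an adjustment for multiple tests, 7 carriers were higher and 8 lower at p under 0.05, beside 21.1% of all genes in either direction.

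**Figure D1:**
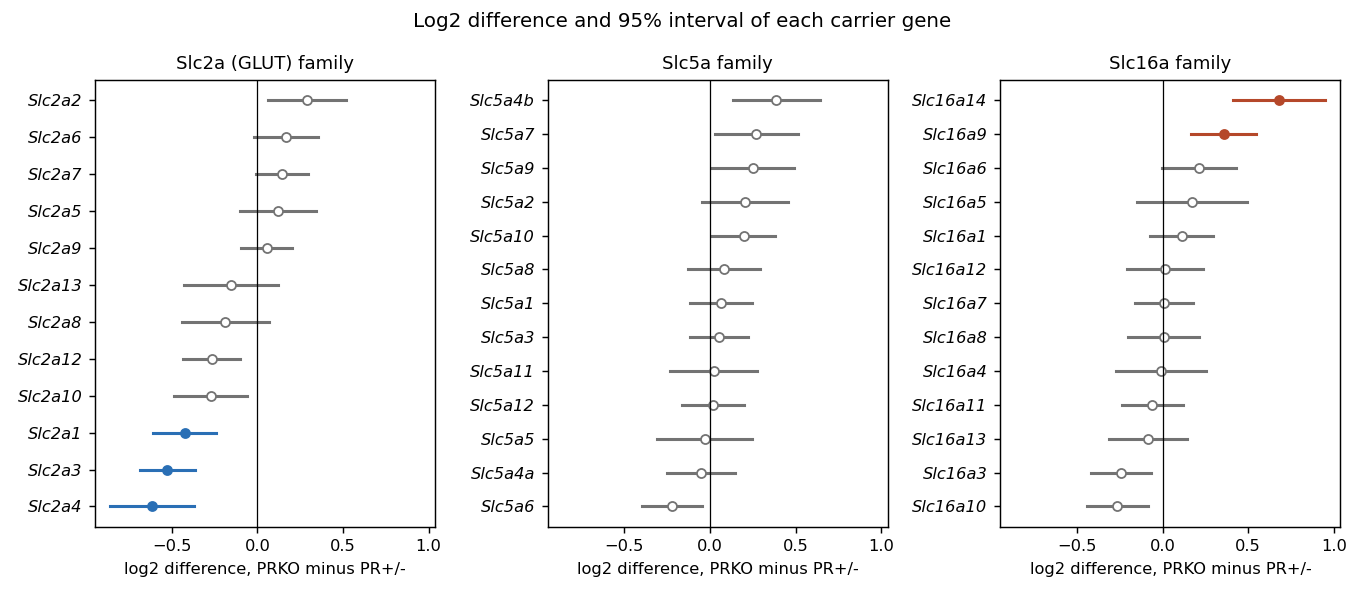
Log2 difference (PRKO minus PR+/-, x axis) of each of the 38 carrier genes, 1 panel a family, with the 95% interval from the limma fit. Filled points were called (blue fell, red rose in PRKO), open points were not. The called carriers are Slc2a1, Slc2a3 and Slc2a4 at the lower end of the Slc2a panel and Slc16a14 and Slc16a9 at the upper end of the Slc16a panel.

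Slc2a3 encodes GLUT3, a carrier of high affinity for glucose that is best known in neurons and in the early embryo. Its signals were 9.87, 9.92, 9.67, 9.89 and 9.82 in PRKO replicates 1 to 5, against 10.22, 10.39, 10.35, 10.45 and 10.38 in PR+/- replicates 1 to 5. All PRKO pools lay below all PR+/- pools, with little spread within either genotype. The log2 difference was -0.53 ± 0.075 (SE, n = 5 each; limma adjusted p = 6.80e-04), which puts PRKO at 69.4% of the PR+/- signal. This call held under all 24 alternative settings that gave it a value, with differences from -0.56 to -0.46.

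Slc2a1 encodes GLUT1, which supplies basal glucose to most cells. It read 9.00, 8.73, 8.82, 8.57 and 8.71 in PRKO replicates 1 to 5, against 9.25, 9.30, 9.13, 9.18 and 9.08 in PR+/- replicates 1 to 5. The genotypes again did not overlap, although PRKO replicate 1 came close to the lowest PR+/- pool. The difference was -0.42 ± 0.086 (limma adjusted p = 0.00998), or 74.5% of the PR+/- signal. With the interquartile range of each array as a covariate the difference was nearly the same, -0.42, but the adjusted p was 0.121.

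Slc2a4 encodes GLUT4, the carrier that insulin brings to the surface of muscle and fat cells. Its signals were 6.50, 6.70, 6.74, 6.26 and 6.16 in PRKO replicates 1 to 5, against 7.16, 7.09, 7.09, 6.88 and 7.20 in PR+/- replicates 1 to 5. PRKO pools were all lower and more spread out, with SDs of 0.260 in PRKO and 0.123 in PR+/-. The difference of -0.61 ± 0.11 (limma adjusted p = 0.00584), 65.4% of the PR+/- signal, was the largest fall among the 38 carriers. With the interquartile range as a covariate it was -0.46 and the adjusted p was 0.181.

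**Figure D2:**
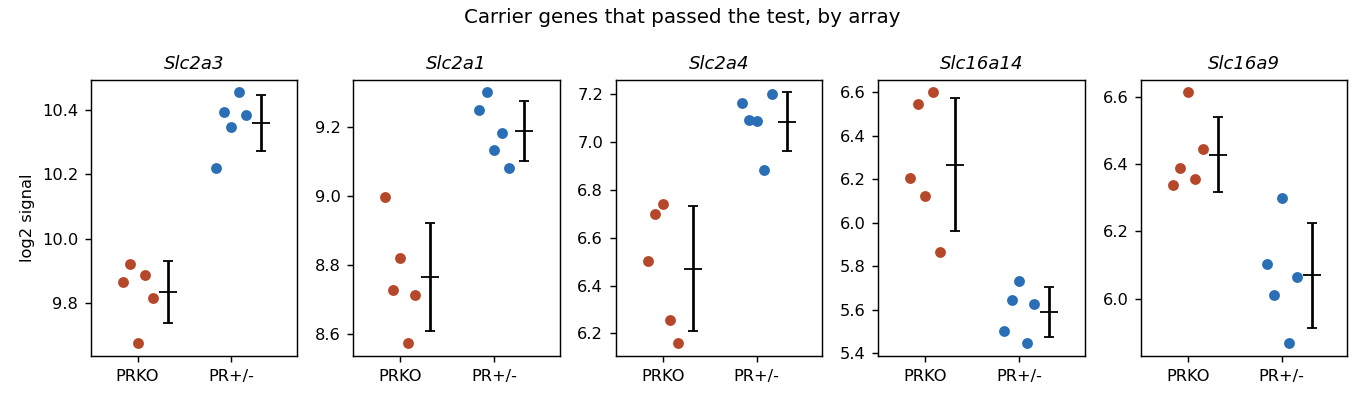
Log2 signal (y axis, a separate scale in each panel) of the 5 called carriers on each array, PRKO left and PR+/- right in each panel; bars give the mean ± SD of 5 arrays. In each panel the 5 PRKO points lie wholly below (Slc2a3, Slc2a1, Slc2a4) or wholly above (Slc16a14, Slc16a9) the 5 PR+/- points.

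Across the Slc2a family, 3 of 12 genes fell and 0 rose at an adjusted p under 0.05, and the family median log2 difference was -0.17. Of all genes, 3.87% were called lower and 1.09% higher. At an unadjusted p under 0.05, 1 member was higher and 5 were lower, beside 2007 higher and 2208 lower of all 19938 genes. The groups did not overlap for 3 Slc2a genes, all lower in PRKO, where 5.06% of all genes lay wholly lower. Slc2a1 and Slc2a3 are in the brightest of 4 equal bins of genes by mean signal, in which 7.48% of genes fell, and Slc2a4 is in the next bin, in which 5.94% fell.

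Cell type markers differed between the genotypes too. All 8 smooth muscle markers fell in PRKO, beside 3.87% of all genes and 7.48% of genes in the brightest bin. Their summed linear signal was 5354 to 6761 on PRKO arrays, against 9529 to 10591 on PR+/- arrays, a mean of 62.1% of PR+/-. The largest fall among them was Des, desmin, at -1.51 and the smallest Lmod1, leiomodin, at -0.41, which was lost without both arrays of high ovarian marker signal (limma adjusted p = 0.0555). Between genotypes, the falls of Slc2a1, Slc2a3 and Slc2a4 accompany this lower smooth muscle signal, and its part in them was not tested.

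The uncalled Slc2a member of smallest p was Slc2a12, which encodes GLUT12, a glucose carrier also found in insulin-responsive tissues. It read 8.31, 8.19, 8.15, 8.47 and 8.27 in PRKO replicates 1 to 5, against 8.42, 8.53, 8.57, 8.57 and 8.62 in PR+/- replicates 1 to 5. PRKO replicate 4 lay above the lowest PR+/- pool, and the other PRKO pools lay below all PR+/- pools. The difference was -0.27 ± 0.078 with a limma adjusted p of 0.0662. It passed the threshold in 6 of 24 alternative settings, among them the fit without PRKO replicate 4 (difference -0.32, adjusted p = 0.0262).

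Slc2a10 encodes GLUT10, whose loss in people causes arterial tortuosity syndrome. It read 4.19, 4.56, 4.27, 4.54 and 4.65 in PRKO replicates 1 to 5, against 4.53, 4.72, 4.77, 4.87 and 4.69 in PR+/- replicates 1 to 5. Several PRKO pools overlapped with PR+/- replicate 1, and the difference of -0.27 ± 0.10 had a limma adjusted p of 0.133.

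The other Slc2a genes lay between -0.19 and 0.29. Slc2a2, which encodes the low-affinity carrier GLUT2 of liver and pancreatic beta cells, had a difference of 0.29 with a limma adjusted p of 0.135. The fructose carrier gene Slc2a5 differed by 0.12 and its chromosomal neighbour Slc2a7 by 0.15. Slc2a9, whose product carries urate, differed by 0.05, and Slc2a13, which encodes a proton-coupled myo-inositol carrier, by -0.15. Slc2a6 differed by 0.17 and Slc2a8, which encodes a carrier held mainly inside cells, by -0.19. All of these were uncalled.

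Slc16a14 encodes MCT14, a transporter of the monocarboxylate family whose cargo is little known. Its signals were 6.21, 6.55, 6.12, 6.60 and 5.86 in PRKO replicates 1 to 5, against 5.50, 5.64, 5.73, 5.44 and 5.63 in PR+/- replicates 1 to 5. All PRKO pools were higher, with an SD of 0.307 in PRKO and 0.116 in PR+/-. The difference of 0.68 ± 0.13 (limma adjusted p = 0.00579), 160% of the PR+/- signal, was the largest of any carrier in either direction. It was called in each of the 10 fits that left out 1 array, and it missed the threshold only without moderation of the variances (adjusted p = 0.0503).

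Slc16a9 encodes MCT9, known in humans as a carnitine exporter. It read 6.34, 6.39, 6.61, 6.35 and 6.44 in PRKO replicates 1 to 5, against 6.10, 6.01, 6.30, 5.87 and 6.06 in PR+/- replicates 1 to 5. The gap between the genotypes was narrow, since PR+/- replicate 3 came close to the lowest PRKO pool. The difference was 0.36 ± 0.089 (limma adjusted p = 0.0321), a 1.28-fold higher signal. A second, dimmer probe set for this gene averaged 2.45 in PRKO and 2.28 in PR+/-, a difference of 0.17 ± 0.16 with a limma adjusted p of 0.607 over all rows.

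The Slc16a9 call was lost in 12 of 24 alternative settings, more than any other of the 5. It was lost without PRKO replicate 3 (adjusted p = 0.0778), PRKO replicate 5 (0.0576), PR+/- replicate 1 (0.0672), PR+/- replicate 2 (0.0879), PR+/- replicate 4 (0.0824) or PR+/- replicate 5 (0.0697). Without both arrays of high ovarian marker signal the difference was 0.26 and the adjusted p 0.169.

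In the Slc16a family as a whole 2 of 13 genes rose and 0 fell, against 1.09% and 3.87% of all genes, and the family median was 0.01. At an unadjusted p under 0.05, 2 were higher and 2 were lower, beside 2007 higher and 2208 lower of all 19938 genes. The groups did not overlap for 2 members that were higher in PRKO and 1 that was lower, beside 2.15% of all genes wholly higher and 5.06% wholly lower.

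The lactate carriers of this family were uncalled. Slc16a1 encodes MCT1, which exchanges lactate and pyruvate in either direction. It read 7.74, 8.00, 7.80, 7.78 and 7.54 in PRKO replicates 1 to 5, against 7.74, 7.57, 7.63, 7.73 and 7.64 in PR+/- replicates 1 to 5. The genotypes overlapped widely, and the difference was 0.11 (95% interval -0.07 to 0.29; limma adjusted p = 0.483).

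Slc16a3 encodes MCT4, the lactate exporter of highly glycolytic cells. It read 7.19, 7.09, 7.01, 6.79 and 7.001 in PRKO replicates 1 to 5, against 7.21, 7.26, 7.18, 7.28 and 7.37 in PR+/- replicates 1 to 5. PRKO replicate 1 alone reached the PR+/- range. The difference was -0.24 ± 0.082 with a limma adjusted p of 0.109.

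Slc16a7 and Slc16a8 encode MCT2 and MCT3, further proton-coupled lactate carriers. Both differed by 0.01, with 95% intervals of -0.16 to 0.18 for Slc16a7 and -0.20 to 0.21 for Slc16a8.

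Slc16a10 encodes TAT1, which carries aromatic amino acids and thyroid hormone. It read 4.79, 4.82, 4.75, 4.48 and 4.69 in PRKO replicates 1 to 5, against 5.12, 4.91, 5.00, 4.85 and 4.96 in PR+/- replicates 1 to 5. All PRKO pools were below all PR+/- pools, by a small margin. The difference of -0.26 ± 0.084 had a limma adjusted p of 0.0891, and it was called under cyclic loess normalization (difference -0.32, adjusted p = 0.0398).

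Slc16a13 encodes a carrier of lactate in mouse liver. It read 7.35, 7.52, 7.10, 7.16 and 6.92 in PRKO replicates 1 to 5, against 7.37, 7.38, 7.16, 7.18 and 7.38 in PR+/- replicates 1 to 5. PRKO pools spanned both the highest and the lowest values, and the difference was -0.08 (limma adjusted p = 0.676). Its sign was positive with the interquartile range as a covariate (0.14, adjusted p = 0.677). Its chromosomal neighbour Slc16a11, known for carrying pyruvate, differed by -0.06.

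The remaining Slc16a members were Slc16a6 (0.21, limma adjusted p = 0.249), Slc16a5 (0.17), Slc16a12 (0.02), whose product carries creatine, and Slc16a4 (-0.01). None of these 4 was called.

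The sodium-coupled Slc5a family had no called member. In limma 0 of 13 rose and 0 fell, while 4 were higher and 1 was lower at an unadjusted p under 0.05, and the groups overlapped for all 13. Over all genes 4.96% were called, 21.1% passed the unadjusted threshold and 7.2% did not overlap, so with 13 members a count of 0 is near the background. The family median log2 difference was 0.06, and the half-width of the 95% interval of a member was 0.21 at the median.

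Slc5a3 encodes SMIT1, which imports myo-inositol as an osmolyte. It read 8.48, 8.71, 8.62, 8.74 and 8.50 in PRKO replicates 1 to 5, against 8.55, 8.41, 8.68, 8.56 and 8.59 in PR+/- replicates 1 to 5. The ranges overlapped almost wholly. The difference was 0.05, with a 95% interval of -0.12 to 0.22 (limma adjusted p = 0.724).

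Slc5a6 encodes the multivitamin carrier SMVT, which imports biotin and pantothenate. It read 5.95, 5.70, 5.90, 5.65 and 5.84 in PRKO replicates 1 to 5, against 6.05, 6.07, 6.14, 5.88 and 6.01 in PR+/- replicates 1 to 5. PRKO was the lower genotype except that PR+/- replicate 4 fell within the PRKO range. The difference of -0.22 ± 0.081 had a limma adjusted p of 0.135.

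Slc5a9 encodes SGLT4, known in humans as a mannose carrier. It read 6.47, 6.10, 6.27, 5.96 and 6.39 in PRKO replicates 1 to 5, against 6.08, 5.87, 6.07, 6.18 and 5.72 in PR+/- replicates 1 to 5. The genotypes overlapped, and the difference of 0.25 ± 0.11 had a limma adjusted p of 0.220.

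Slc5a4b is a mouse relative of human SGLT3, which acts as a glucose sensor. It read 3.33, 2.91, 3.68, 3.08 and 3.33 in PRKO replicates 1 to 5, against 2.94, 2.97, 2.79, 2.79 and 2.90 in PR+/- replicates 1 to 5. PRKO replicate 2 lay within the PR+/- range and the other PRKO pools above it. The difference was 0.39 ± 0.12 (limma adjusted p = 0.0810), and without PRKO replicate 2 it was 0.48 with an adjusted p of 0.0223.

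The probe set of Slc5a4b is in the dimmest of the 4 bins of genes by signal, where the median log2 difference was 0.12. Its neighbouring paralog Slc5a4a differed by -0.05, and whether the 2 genes share signal was not tested.

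The glucose carriers SGLT1 and SGLT2, encoded by Slc5a1 and Slc5a2, differed by 0.06 and 0.20. Slc5a7, the choline carrier of cholinergic nerve endings, differed by 0.27 (limma adjusted p = 0.190), and without PRKO replicate 4 by 0.38 with an adjusted p of 0.0253. Its probe set was the dimmest of the 38 carriers (mean signal 2.61), in the bin whose median difference was 0.12. The sodium-coupled monocarboxylate carrier genes Slc5a8 and Slc5a12 differed by 0.08 and 0.02. Slc5a10 differed by 0.20, Slc5a11, which encodes a myo-inositol carrier, by 0.02, and the iodide carrier gene Slc5a5 by -0.03.

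**Figure D3:**
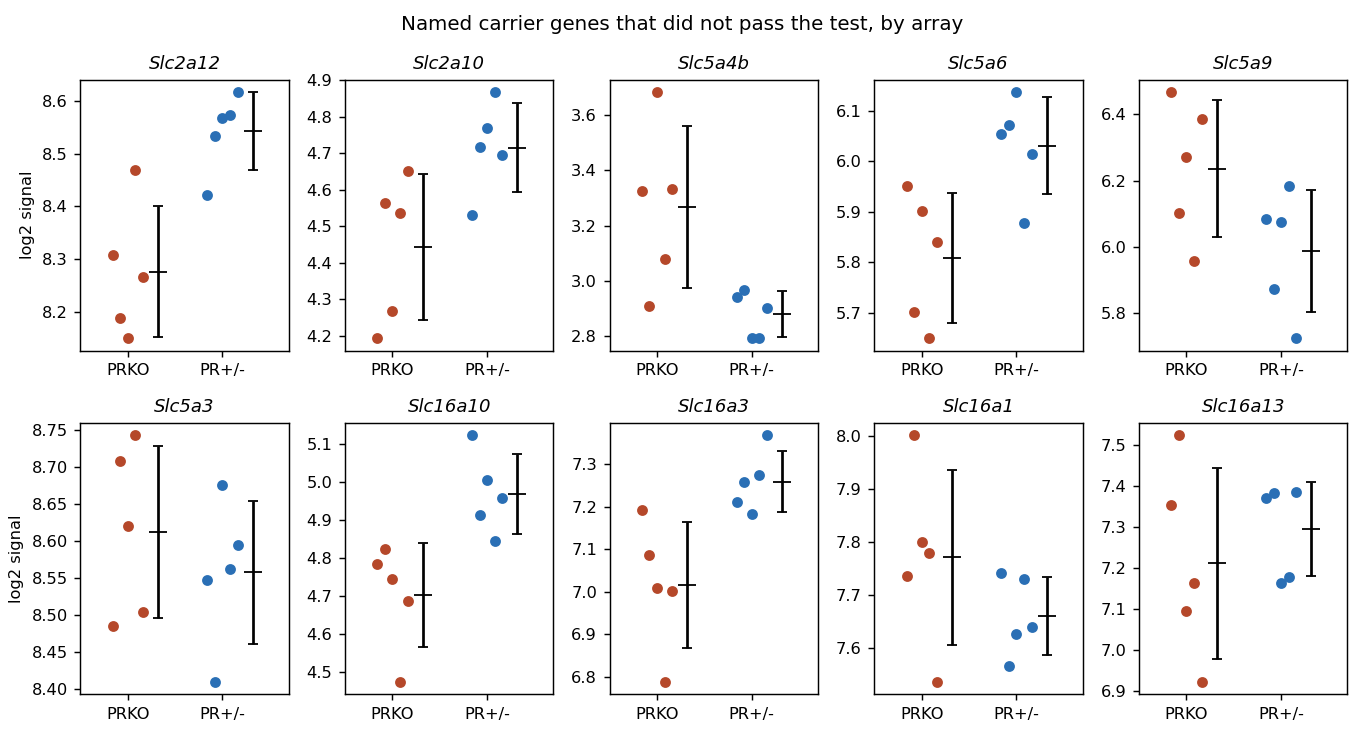
Log2 signal (y axis, a separate scale in each panel) of the 10 uncalled carriers named for their rank in signal or p within a family, PRKO left and PR+/- right; bars give the mean ± SD of 5 arrays. The genotypes overlap in 9 of these panels, the exception being Slc16a10, and the log2 differences run from -0.27 (Slc2a10) to 0.39 (Slc5a4b).

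Signal limits what can be read from some members. Of the 39, 8 fell in the dimmest 30% of probe sets (below a signal of 3.92) and 19 in the dimmer 50% (below 5.22), and the table gives no background values against which to judge them. None of the 5 called carriers was among these 19. PRKO SDs exceeded PR+/- SDs in 30 of the 38 carriers, beside 74.7% of all genes.

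Promoter sequence was available for 29 of the 39 members, in 31 windows of the RefSeq table (GRCm38.p6). The 250 bases before each annotated start were searched on both strands for 3 motifs. The first is the palindrome bound by the progesterone, glucocorticoid and androgen receptors, in which ACANNNTGT is preceded by GN and followed by NC. The second is its centre ACANNNTGT alone, and the third is ACGTG, a core bound by hypoxia-inducible factors and by other factors. The palindrome was in 0 of the 31 windows, beside 0.387% of all 32851 windows. Its centre was in 2 windows, those of Slc2a10 and Slc2a12, beside 5.84% of all, and every palindrome match also holds it. ACGTG was in 5 windows, those of Slc2a1, Slc16a1, Slc16a3, Slc16a12 and Slc5a1, beside 16.6% of all.

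The upstream sequences of 3 called carriers are shown because they are the ones that changed and lie in the table, and capitals mark ACGTG. The Slc2a1 sequence is at chr4:119108495-119108744 on the plus strand, the Slc16a9 sequence is at chr10:70245026-70245275 on the plus strand, and that of Slc16a14 is at chr1:84935282-84935333 on the minus strand, where it is limited to the bases outside the annotated gene.
Slc2a1: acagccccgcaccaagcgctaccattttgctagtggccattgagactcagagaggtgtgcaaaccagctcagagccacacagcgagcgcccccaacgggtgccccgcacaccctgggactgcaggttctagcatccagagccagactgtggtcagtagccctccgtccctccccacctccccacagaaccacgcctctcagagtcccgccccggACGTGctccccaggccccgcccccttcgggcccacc
Slc16a9: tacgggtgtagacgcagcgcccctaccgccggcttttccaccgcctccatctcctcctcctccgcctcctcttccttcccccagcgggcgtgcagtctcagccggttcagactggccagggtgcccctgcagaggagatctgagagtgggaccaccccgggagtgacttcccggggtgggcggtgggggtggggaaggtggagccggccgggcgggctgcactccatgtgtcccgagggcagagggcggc
Slc16a14: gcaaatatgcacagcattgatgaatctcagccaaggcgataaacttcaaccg
The search covered 250 bases for each gene, of which 52 are printed for Slc16a14. In the printed bases the G and C content was 66.4% for Slc2a1, 70.4% for Slc16a9 and 44.2% for Slc16a14.

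The enzymes that use what these carriers move were read from lists of textbook members. Of 20 glycolytic enzyme genes measured, 4 fell and 0 rose, with a median log2 difference of -0.04, beside 3.87% of all genes that fell and 1.09% that rose (7.48% and 0.642% in the brightest bin). Pfkfb3, which makes the activator of phosphofructokinase, fell by 0.52 on the log2 scale (SE 0.074; limma adjusted p = 6.81e-04). Pgam1, phosphoglycerate mutase, had -0.42 (adjusted p = 0.0174), Aldoa, an aldolase, -0.37 (0.0278) and Pfkp, a phosphofructokinase, -0.36 (0.0444). Pfkfb3 was called in each of the 10 fits that left out 1 array. Pgam1 was called in 8 of them, Aldoa in 4 and Pfkp in 3. The number of glycolytic genes called was 1 without PR+/- replicate 1 or 2, and 2 without PR+/- replicate 5, PRKO replicate 3 or PRKO replicate 5. It was 1 without both arrays of high ovarian marker signal, where Pgam1 (adjusted p = 0.0625), Aldoa (0.101) and Pfkp (0.0606) were lost.

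Hexokinase genes, which trap glucose after uptake, were uncalled: Hk1 differed by 0.10 and Hk2 by 0.18 (limma adjusted p = 0.598 for Hk1 and 0.339 for Hk2).

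Of 17 genes of lactate and pyruvate metabolism, 3 fell and 0 rose, with a median of -0.17. Of all genes 3.87% fell and 1.09% rose. In the brightest bin, where most of this list lies, 7.48% fell and 0.642% rose. Pcx, the pyruvate carboxylase, fell by 0.49 on the log2 scale (SE 0.076; limma adjusted p = 0.00147). Pdk4, a kinase that switches off pyruvate dehydrogenase, had -0.46 (adjusted p = 0.0274), and Ldha, a lactate dehydrogenase subunit, had -0.30 (0.0398). Pcx was called in each of the 10 fits that left out 1 array, Pdk4 in 3 of them and Ldha in 2. The number called was 1 without PR+/- replicate 1, 2 or 5 or without PRKO replicate 4. Ldha was also lost without both arrays of high ovarian marker signal (adjusted p = 0.10).

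Of 17 genes of glycogen metabolism and gluconeogenesis, 2 fell and 0 rose, with a median of -0.13, beside 3.87% and 1.09% of all genes. Pygl, a glycogen phosphorylase, had -0.44 (limma adjusted p = 0.0167), and Pgm1, a phosphoglucomutase, had -0.32 (0.0443). No gene of this list was called without PR+/- replicate 1, and 1 was called without PR+/- replicate 2, 4 or 5 or PRKO replicate 3, 4 or 5. Without both arrays of high ovarian marker signal Pgm1 was lost (adjusted p = 0.168).

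Genes for partners of the carriers and for proteins that govern their trafficking were read in the same way. Of 21 measured, 4 fell and 0 rose, with a median of -0.15, beside 3.87% and 1.09% of all genes. In the brightest bin, where most of this list lies, 7.48% fell and 0.642% rose. Tbc1d1, a Rab regulator that holds GLUT4 vesicles back, had -0.39 (limma adjusted p = 0.00566), and Txnip, which promotes removal of GLUT1 from the surface, had -0.46 (0.0115). Nptn, neuroplastin, a chaperone of MCT proteins, had -0.35 (0.0339), and Akt2, the kinase of the insulin pathway that moves GLUT4 to the surface, had -0.34 (0.0350). Tbc1d1 and Txnip restrain glucose uptake while Akt2 promotes it, so the called members of this list do not share a role.

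Tbc1d1 and Txnip were called in each of the 10 fits that left out 1 array, Nptn in 4 of them and Akt2 in 2. The number called was 2 without PR+/- replicate 1, 2, 4 or 5 or PRKO replicate 1. Without both arrays of high ovarian marker signal Nptn (adjusted p = 0.0837) and Akt2 (0.118) were lost. Bsg, basigin, the main chaperone of MCT1 and MCT4, had -0.24 (limma adjusted p = 0.278), and Emb, embigin, another MCT chaperone, had -0.09 (0.520).

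Among 4 measured genes of the inositol, polyol and fructose list 0 rose and 0 fell in limma, with a median of 0.02. At an unadjusted p under 0.05, 0 of them passed, beside 21.1% of all genes. Among 10 genes of thyroid hormone handling 1 fell and 0 rose, with a median of 0.09, beside 3.87% and 1.09% of all genes. That gene was Slc7a8, which encodes LAT2, an exchanger of neutral amino acids that also carries thyroid hormone. It averaged 6.43 ± 0.48 in PRKO and 8.14 ± 0.13 in PR+/- (SD, n = 5 each), a log2 difference of -1.71 ± 0.18 (limma adjusted p = 4.36e-05), and it was called in each of the 10 fits that left out 1 array.

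In the fit with the interquartile range of each array as a covariate, the genes of these 6 lists that were called above and still passed were Pfkfb3 (-0.43, limma adjusted p = 0.0324), Pdk4 (-0.65, 0.0253) and Slc7a8 (-1.83, 0.00202). Pcx had -0.42 with an adjusted p of 0.0523 there. The falls in the enzyme and partner lists also accompany the lower smooth muscle sum given above, and its part in them was not tested.

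**Figure D4:**
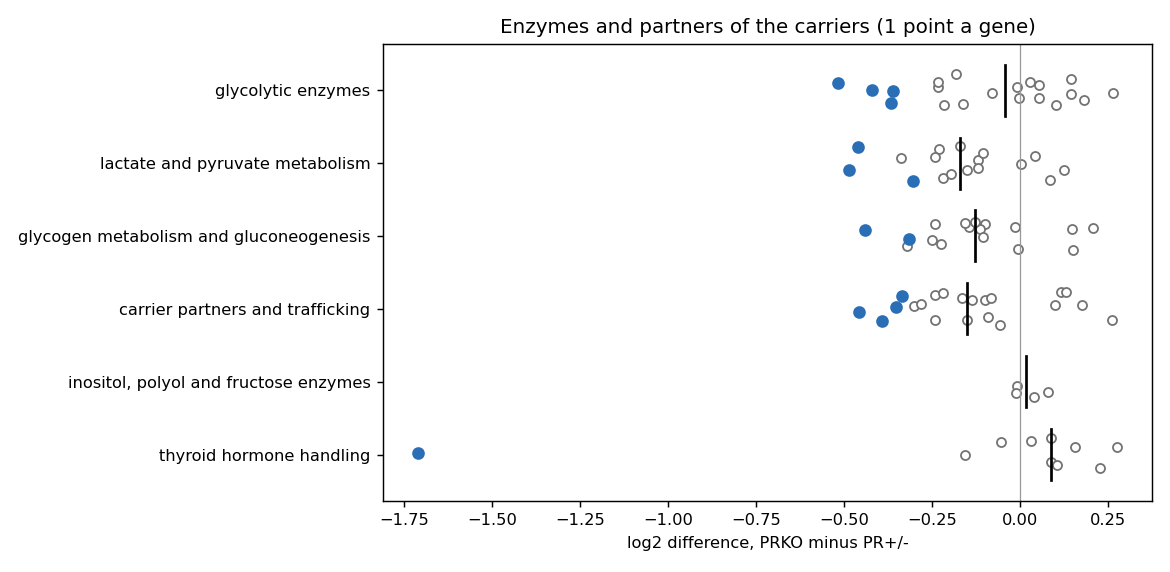
Log2 difference (PRKO minus PR+/-, x axis) of each measured gene of 6 lists of enzymes and partners, 1 point a gene, spread vertically for legibility; vertical bars mark each list's median and filled blue points fell in PRKO. No gene of these lists rose, and the point at -1.71 is Slc7a8.

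Markers of other cell types also differed. Beside the counts here and below stand 3.87% of all genes that fell and 1.09% that rose. At an unadjusted p under 0.05, 2007 of all 19938 genes were higher and 2208 lower. Of 5 secretory epithelial markers, 2 fell, Cldn3 by 0.98 and Krt19 by 0.40 on the log2 scale, while Msx2 differed by 0.30 (higher at an unadjusted p of 0.0478), Epcam by 0.10 and Pax8 by -0.01, and the list's median was -0.01. Krt19 was called in only 2 of the 10 fits that left out 1 array and was lost without both arrays of high ovarian marker signal (limma adjusted p = 0.158). The summed secretory signal was 2159 to 3237 in PRKO and 3185 to 3691 in PR+/-, and Krt19, the brightest of the 5, weighs most in it. Of the 6 markers listed, Ovgp1 had no probe set with 1 symbol and was not read.

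Of 6 endothelial markers, Emcn (-0.53) and Pecam1 (-0.27) fell, while Tie1 differed by -0.15, Tek by -0.12, Cdh5 by -0.02 and Kdr by 0.02. Pecam1 was called in only 2 of the 10 fits that left out 1 array and was lost without both arrays of high ovarian marker signal (limma adjusted p = 0.0709). The endothelial sum was 401 to 478 in PRKO and 468 to 511 in PR+/-. Of 5 mesothelial markers Msln (-0.45) fell, while Upk3b differed by -0.26, Upk1b by -0.10, Wt1 by -0.002 and Lrrn4 by 0.08. The Msln call was lost without PR+/- replicate 2 (limma adjusted p = 0.0566) or without both arrays of high ovarian marker signal (0.073). The mesothelial sum was 1171 to 1473 in PRKO and 1432 to 1603 in PR+/-. Their part in the carrier results was not tested either.

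Skeletal muscle and fat express much Slc2a4. Their markers were dim and uncalled, with 0 of 7 skeletal muscle markers and 0 of 7 adipocyte markers called and 1 and 2 of them higher at an unadjusted p under 0.05. The skeletal muscle sum was 190 to 219 in PRKO and 190 to 210 in PR+/-. The adipocyte sum was 148 to 163 in PRKO and 148 to 154 in PR+/-.

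Multiciliated cell markers summed to 2418 to 2732 in PRKO and 2273 to 2863 in PR+/-, with 0 of 8 called and 1 higher at an unadjusted p under 0.05. Leukocyte (8), erythroid (2), oocyte (6) and ovarian (8) markers also had no called member in limma, and 1, 1, 0 and 1 of them were higher at an unadjusted p under 0.05.

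**Figure D5:**
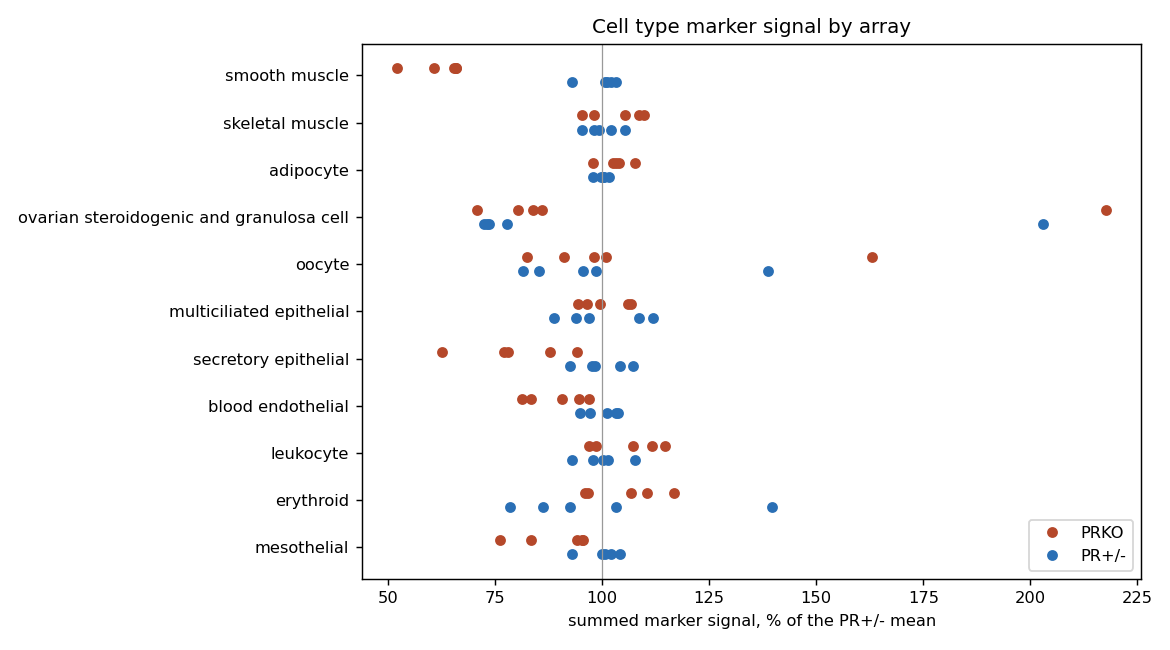
Summed linear marker signal of each array as a percentage of the PR+/- mean (x axis) for 11 cell type lists, PRKO above PR+/- in each row, 1 point an array. The 5 PRKO points for smooth muscle lie below all PR+/- points, and 1 array of each genotype stands to the right in the ovarian and oocyte rows.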

How the data were processed

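The data were the authors' deposited table of processed values, 1 value per probe set for each of 10 Affymetrix whole-transcript arrays. The authors' deposited values are taken as log2 signal from their range (1.09 to 13.6), since no label states the scale, and percentages and folds rest on that reading. Per the submitters' processing notes, the authors used Partek. How the values were background-corrected, normalized and summarised, and in which version, is a step not given in the sources used here, so its effect on them is unknown. The number of arrays limits precision.

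Probe sets were named through the platform's annotation. Of 35557 rows, 21789 had 1 symbol, 1621 several and 12147 none. The probe set with the highest mean stood for a gene, also for the 999 genes with several, which left 19938 genes. All 39 members were matched by gene ID to GRCm38.p6 with an unchanged symbol. No dim genes were removed.

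PRKO and PR+/- arrays were compared in R 4.3.3 by limma 3.58.1 (genotype term, moderated variances with 6.08 prior and 8 residual degrees of freedom, Benjamini-Hochberg adjustment over all genes). The fit was tested on simulated data with the same SD in both genotypes. In the real data the PRKO SD was larger in 74.7% of genes, which the simulation does not cover. Values with ± are SE unless SD is stated. Members, gene lists and alternatives were chosen with earlier results of these data known. Values on every array are given for called carriers, the 3 brightest carriers of each family and its 2 uncalled carriers of smallest p; from each enzyme or partner list up to 4 called genes by smallest p are named, and others are named for their role. The replicate numbers were not used as pairs. Alternatives covered normalization, dim filters, probe set choice, moderation, weights, covariates, left-out arrays and thresholds.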

Additional observations from a re-analysis of the deposited data

Results flagged for a closer look

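PR+/- replicate 3 stood apart from the rest of its group for Slc2a7, with a log2 signal of 3.36 where the other PR+/- arrays lay between 3.52 and 3.59. Its gap to the nearest array, divided by the group's range, was 0.711, just above Dixon's critical value for 5 arrays. Chance alone gives such a gap in about 1 group of 20, and this was 1 of 78 groups examined (39 genes in each genotype). The probe set is dim and the gene was not called.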

How the results depend on the processing

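Slc2a3 was called under all 24 alternative settings and Pgr under all 24 (-1.10 to -1.02). Slc2a1 and Slc2a4 lost their call only with the interquartile range as a covariate, and Slc16a14 only without moderation. Under that covariate 322 genes were called (988 as reported), with 2 carriers, 1 in Slc2a, 1 in Slc16a, 1 glycolytic, 1 lactate and pyruvate, 0 glycogen and 0 partner genes, and Slc16a13 turned to 0.14. Without moderation 3 carriers were called, with 0 in Slc16a, 2 glycolytic (Pfkfb3 lower, and Pgk1, named after its values were seen, higher at 0.15 with an adjusted p of 0.0277, against 0.210 with moderation), 0 glycogen and 2 partner genes. Testing every row gave 1 in Slc16a, 2 glycolytic, 1 lactate and pyruvate, 1 glycogen and 2 partner genes, and averaging a gene's probe sets gave 1 in Slc16a. Without PR+/- replicate 4 and PRKO replicate 3, 562 genes were called, with 1 in Slc16a, 1 glycolytic, 1 glycogen and 2 partner genes. Without PRKO replicates 1 and 5 there were 1 in Slc16a, 0 glycogen and 1 partner gene. Quantile normalization gave 2 glycolytic and 1 glycogen gene, and cyclic loess 1 glycogen gene. At an adjusted p under 0.1, 1731 genes, 8 carriers and 1 Slc5a gene were called, and under 0.01, 412 genes, with 1 in Slc16a, 1 glycolytic, 1 lactate and pyruvate, 0 glycogen and 1 partner gene. Leaving out 1 array gave 581 to 1165 genes, the lowest counts without PR+/- replicate 1 (581) and PR+/- replicate 2 (598), and 4 to 7 carriers, 3 to 4 in Slc2a, 0 to 1 in Slc5a, 1 to 2 in Slc16a, 1 to 4 glycolytic, 1 to 2 lactate and pyruvate, 0 to 2 glycogen, 2 to 5 partner, 0 to 0 inositol and 1 to 1 thyroid genes. With the replicate number as a replicate block, 1042 genes and 5 carriers were called, but same-numbered arrays' deviations correlated at 0.10, 0.12, -0.01, 0.13 and 0.16, so the numbers are not shown to pair the samples. The cause of these shifts was not tested. Dim probe sets limit 8 members most.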
